A study of Homo sapiens with 4 samples.

Results

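The transcription factor NRF2, encoded by NFE2L2, its repressor KEAP1 and 7 of the genes best known as NRF2 targets were examined in RNA-seq data from MCF10A cells. The 9 genes were taken by name (NFE2L2, KEAP1, GCLC, GCLM, NQO1, HMOX1, TXNRD1, SRXN1 and ME1) from the 63856 genes of the count table, and all 9 were among the 15830 genes that had enough counts to be tested. MCF10A is a non-tumorigenic line of human breast epithelium. RNA was sequenced from unmodified wild type cells (WT) and from cells transduced with lentivirus carrying HSF1 cDNA in the pLVX-Puro plasmid and selected with puromycin (HSF1-pLVX), with 2 replicate libraries of each. Both groups grew in DMEM/F12 with horse serum, insulin, hydrocortisone, EGF and, by the sample labels though not the study's methods, cholera toxin. No library of cells with the empty pLVX plasmid was used here, so HSF1 itself, the vector, the selection and separate culture of the transduced cells cannot be told apart as sources of a difference. The p-values measure the spread between the 2 libraries of a group, which the study's methods call biological replicates without saying whether they came from separate cultures, and that spread may in part be technical.

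NRF2 is a basic leucine zipper factor that pairs with small MAF proteins on antioxidant response elements. In unstressed cells KEAP1 brings NRF2 to a CUL3 ubiquitin ligase and it is degraded. When electrophiles or oxidants modify KEAP1, NRF2 accumulates and raises the transcription of genes for glutathione synthesis, thiol reduction, quinone reduction, haem breakdown and NADPH supply. Because this control acts on the protein, the mRNA of NFE2L2 is not a measure of NRF2 activity. BACH1 and BACH2 bind the same elements and repress them.

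The promoters of the 9 genes were read from RefSeq (GRCh38.p14, from 250 bases before to 50 bases after each annotated start) and searched on both strands for TGACNNNGC, the core of the antioxidant response element. In total 8 of the 9 genes matched an entry, with 11 starts between them. HMOX1 did not. The core was present in 5 windows of 4 genes (KEAP1, GCLM, TXNRD1 and ME1), and 13.35% of all 35116 windows in the table held it. The 140 bases before the start are printed below for these 4 genes and for GCLC, which had no match, because GCLC and GCLM encode the 2 subunits of one enzyme and moved in opposite directions in the RNA. Sequences run 5′ to 3′ on the strand of the gene, and capitals mark each core, on either strand, that lies whole within the printed bases.
KEAP1, second start, chr19:10502772-10502911, minus strand: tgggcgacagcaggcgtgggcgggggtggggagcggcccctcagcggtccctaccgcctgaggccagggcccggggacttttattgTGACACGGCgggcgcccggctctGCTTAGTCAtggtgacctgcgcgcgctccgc
GCLM, chr1:93909431-93909570, minus strand: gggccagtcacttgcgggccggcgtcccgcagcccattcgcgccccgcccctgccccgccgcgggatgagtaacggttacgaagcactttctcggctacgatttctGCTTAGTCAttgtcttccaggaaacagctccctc
TXNRD1, first start, chr12:104215639-104215778, plus strand: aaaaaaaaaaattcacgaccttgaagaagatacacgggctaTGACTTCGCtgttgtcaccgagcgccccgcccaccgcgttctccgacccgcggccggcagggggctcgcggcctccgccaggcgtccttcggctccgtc
ME1, chr6:83431052-83431191, minus strand: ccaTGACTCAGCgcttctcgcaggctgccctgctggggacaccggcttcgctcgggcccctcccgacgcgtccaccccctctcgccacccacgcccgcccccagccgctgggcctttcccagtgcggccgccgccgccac
GCLC, chr6:53545102-53545241, minus strand: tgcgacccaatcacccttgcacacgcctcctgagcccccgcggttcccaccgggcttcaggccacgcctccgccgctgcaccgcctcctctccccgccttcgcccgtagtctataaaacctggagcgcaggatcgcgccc
The KEAP1 window held cores beginning 54 and 31 bases before the start, and GCLM held 1 beginning 34 bases before it. The core of ME1, at 137 bases before the start, also contains the AP-1 site TGACTCA. A further TXNRD1 core begins 8 bases before the printed start and runs past it, so its printed bases are left in lower case. The match at the second start of TXNRD1 and the one after the start of ME1 are not printed. A match describes the letters of these windows only, and so does its lack.

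HSF1 was examined first, since it was the gene introduced. Its level in CPM (counts relative to library size, after TMM normalization) was 200.4 and 189 in the WT libraries and 982 and 999 in the HSF1-pLVX libraries, a log2 fold change of 2.35 (SE 0.0999, edgeR adjusted p = 1.14e-10). Library totals lay between 18688109 and 24184285 counts, and the 10 most abundant genes took 8.66 to 10.8% of them. Of 8 mammary epithelial markers all were measured, and their summed level was 14067 to 14356 CPM in WT and 8805 to 9548 CPM in HSF1-pLVX, where KRT5, TP63 and ITGA6 were higher and KRT14, KRT17, KRT18 and EPCAM lower. The 7 fibroblast markers summed to 7.78 to 10.8 CPM in WT and 13.9 to 14.9 CPM in HSF1-pLVX. Only 2 of them were tested, of which DCN was higher (0.0533 and 0.161 CPM in WT, 3.74 and 4.38 CPM in HSF1-pLVX) and COL1A1 was not called. The endothelial, leukocyte and adipocyte markers summed to at most 1.41 CPM in any library. Epithelial markers and DCN moved with the groups, and their part in the results that follow was not tested. In bulk RNA, fewer cells of a type and less RNA per cell cannot be told apart.

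Between HSF1-pLVX and WT cells, 2 of the 9 genes were higher (NFE2L2 and GCLC) and 5 were lower (GCLM, TXNRD1, NQO1, HMOX1 and ME1). KEAP1 and SRXN1 did not pass the test. HMOX1 had the largest change, at 8.72-fold lower, and GCLC had the only rise beyond 2-fold. The median log2 fold change of the 9 was -0.58, against 0.0193 over all 15830 genes. Genes were called with edgeR's quasi-likelihood test at a Benjamini-Hochberg adjusted p of 0.05 over all genes tested. This comparison moved much of the transcriptome, since 65.9% of all tested genes were called, 32.7% higher and 33.2% lower. The 7 of 9 called here must be read against that share. In 8 of the 9 genes the 2 libraries of one group lay entirely above those of the other, KEAP1 being the exception, where 83.1% of all tested genes did so. A fold beyond 2 together with the call left 1 gene higher (GCLC) and 2 lower (HMOX1 and ME1), where 14.9% and 14.0% of all tested genes passed. The same 3 genes passed the ratio rule of the study, which asks that both replicates of the normalized table show a ratio beyond 2.0 (or under 0.5) and which 5.00% and 6.42% of the 22321 rows passed upwards and downwards. With 2 libraries a group, the smallest p that exact permutation allows one gene is 0.33, and edgeR therefore pools information on spread across genes.

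**Figure D1:**
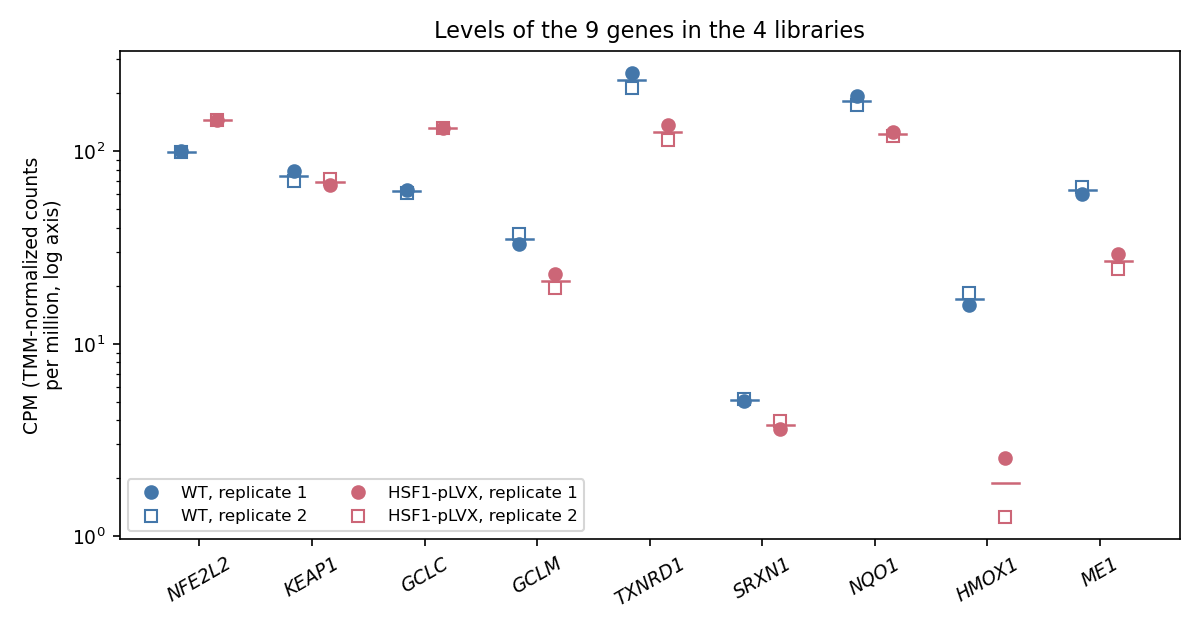
Level of each of the 9 genes in CPM (log axis) in the 4 libraries, with circles for replicate 1, squares for replicate 2 and a bar for the mean of each group. NFE2L2 and GCLC sit higher in both HSF1-pLVX libraries, KEAP1 overlaps between the groups, and the other 6 genes sit lower, HMOX1 the furthest at 2.55 and 1.26 CPM.

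NFE2L2 encodes NRF2 itself and lies on chromosome 2 (177227595 to 177392697, minus strand, hg38, as the first and last counted base in the count table). It held 99.9 and 98.4 CPM in the WT libraries and 146 and 145 CPM in the HSF1-pLVX libraries. As a ratio, the libraries within each group were closer together than in any other gene of the set but GCLC in HSF1-pLVX cells. The groups were well apart. The log2 fold change was 0.55 (SE 0.0838, edgeR adjusted p = 4.44e-05). Other annotated genes share 20.9% of the counted bases of NFE2L2. The largest share, 1054 bases, is with a gene on the same strand that held 24 to 49 counts in each library, against 1829 to 3662 for NFE2L2.

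KEAP1, the adaptor that presents NRF2 for degradation (chromosome 19, 10486120 to 10503741, minus strand), was the one gene whose groups overlapped. WT libraries held 78.7 and 69.6 CPM and HSF1-pLVX libraries 66.9 and 71.8 CPM. The difference within WT was larger than the difference between the group means. The log2 fold change was -0.10 (SE 0.0890, edgeR adjusted p = 0.352), with a 95% interval of the log2 fold change from -0.29 to 0.09. Without WT replicate 1 it was 0.01 (edgeR adjusted p = 0.957). On the TPM scale (counts divided by the counted exon length and then scaled to a common total), the ratio of NFE2L2 to KEAP1 was 0.799 and 0.889 in WT and 1.37 and 1.27 in HSF1-pLVX. On this scale NFE2L2 mRNA was the less abundant of the pair in both WT libraries and the more abundant in both HSF1-pLVX libraries. In CPM, NFE2L2 lay above KEAP1 in every library, also in WT (99.9 and 98.4 against 78.7 and 69.6). The order in WT therefore rests on the counted lengths. Other genes share 20.9% of those of NFE2L2 and none of KEAP1, and the overlap setting of the counting is not given. Which mRNA was the more abundant in WT is thus uncertain.

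The genes for the subunits of glutamate-cysteine ligase, the enzyme of the first and rate-limiting step of glutathione synthesis, moved apart. GCLC encodes the catalytic subunit (chromosome 6, 53497341 to 53616970, minus strand), and its level was 63.1 and 60.5 CPM in WT and 132 and 131 CPM in HSF1-pLVX. That is a rise of 2.13-fold, with a log2 fold change of 1.09 (SE 0.0840, edgeR adjusted p = 4.56e-08). GCLM encodes the modifier subunit, which lowers the Km of the enzyme for glutamate and its inhibition by glutathione (chromosome 1, 93885205 to 93909456, minus strand). GCLM held 33.1 and 37.0 CPM in WT and 23.1 and 19.5 CPM in HSF1-pLVX, a log2 fold change of -0.71 (SE 0.107, edgeR adjusted p = 4.06e-05). In GCLM the replicates differed more than in GCLC, and the groups still did not overlap. In TPM, the mRNA of the catalytic subunit was at 1.22 and 1.05 times that of the modifier subunit in WT and at 3.66 and 4.30 times in HSF1-pLVX. The subunit mRNAs were therefore at near equal levels per length in WT and 3.98 ± 0.456 to 1 in HSF1-pLVX (mean ± SD, n = 2). The near equality in WT depends on the counted lengths, since in CPM GCLC lay above GCLM there too. Protein was not measured here. GCLC shares 6.33% of its counted bases with other genes, and GCLM shares none.

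TXNRD1 and SRXN1 serve the thioredoxin system. TXNRD1 encodes the cytosolic thioredoxin reductase, which uses NADPH to reduce thioredoxin (chromosome 12, 104215779 to 104350305, plus strand). It held 255 and 212 CPM in WT and 137 and 114 CPM in HSF1-pLVX. Both HSF1-pLVX libraries lay well below both WT libraries, and the log2 fold change was -0.90 (SE 0.111, edgeR adjusted p = 6.21e-06). SRXN1 encodes sulfiredoxin, which repairs overoxidized peroxiredoxins (chromosome 20, 646615 to 653370, minus strand). It was the scarcest gene of the set in WT, with 95 and 96 counts in WT and 91 and 79 in HSF1-pLVX, that is 5.06 and 5.17 CPM against 3.62 and 3.98 CPM. The groups did not overlap, but the log2 fold change of -0.43 (SE 0.194, edgeR adjusted p = 0.0634) did not pass over all genes, and its own 95% interval, not adjusted for the number of genes, ran from -0.85 to -0.02. Another annotated gene on the same strand covers 2292 of the 2698 counted bases of SRXN1 (85.0%) and held at most 1 count. With the overlap setting of the counting not given in the sources used here, reads falling in the shared bases may have been left uncounted, and the level of SRXN1 is uncertain for that reason.

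NQO1 encodes the NADPH quinone reductase whose induction is commonly used as a readout of NRF2 (chromosome 16, 69706996 to 69726951, minus strand). Its level was 192 and 174 CPM in WT and 125 and 119 CPM in HSF1-pLVX, and the log2 fold change was -0.58 (SE 0.0902, edgeR adjusted p = 5.57e-05). NQO1 was lower by 1.49-fold and still the most abundant of the 9 genes per length in both groups.

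HMOX1 encodes the inducible haem oxygenase, which opens haem to biliverdin, iron and carbon monoxide (chromosome 22, 35380361 to 35394214, plus strand). It is induced through NRF2 and repressed by BACH1. It was counted 297 and 341 times in the WT libraries and 64 and 25 times in the HSF1-pLVX libraries, that is 15.8 and 18.4 CPM against 2.55 and 1.26 CPM. Both HSF1-pLVX libraries were far below WT, while the ratio between them was larger than between the replicates of any other gene of the set. The log2 fold change was -3.12 (SE 0.218, edgeR adjusted p = 1.56e-08). Leaving out HSF1-pLVX replicate 1 gave a log2 fold change of -3.76 for HMOX1, and leaving out HSF1-pLVX replicate 2 gave -2.73.

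ME1 encodes the cytosolic malic enzyme, one of the sources of NADPH (chromosome 6, 83210389 to 83431071, minus strand). WT libraries held 60.3 and 64.8 CPM and HSF1-pLVX libraries 29.2 and 24.4 CPM, so that no library of one group came near the other. The log2 fold change was -1.22 (SE 0.1002, edgeR adjusted p = 8.95e-08), a level 2.32-fold lower.

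**Figure D2:**
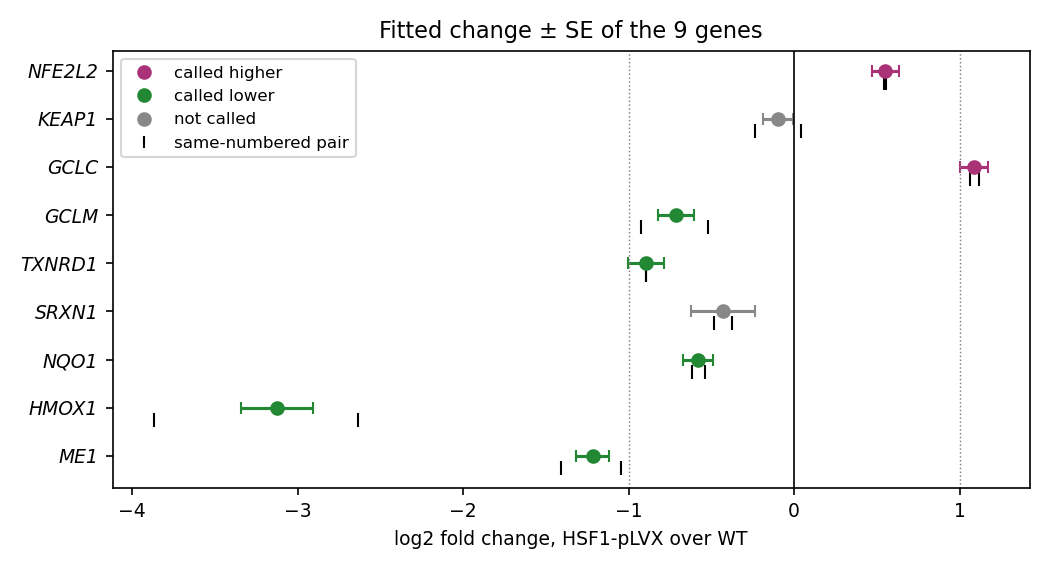
Fitted log2 fold change of HSF1-pLVX over WT (points, bars are the SE of the fit) for the 9 genes, with black ticks for the log2 ratio of the same-numbered libraries and dotted lines at 2-fold. HMOX1 lies at -3.12 with its ticks furthest apart, GCLC lies beyond the 2-fold line on the right, and only the ticks of KEAP1 fall on both sides of 0.

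Levels of different genes were compared per length, in TPM. In WT the order was NQO1 (176 ± 5.64, mean ± SD, n = 2), TXNRD1 (108 ± 9.66), KEAP1 (61.5 ± 2.88), ME1 (58.0 ± 5.27), NFE2L2 (51.8 ± 1.49), GCLC (22.8 ± 0.213), HMOX1 (22.2 ± 3.20), GCLM (20.2 ± 2.41) and SRXN1 (5.92 ± 0.321). KEAP1 and ME1 overlapped between their libraries, and so did GCLC with HMOX1 and HMOX1 with GCLM, so these neighbours did not differ beyond their spread. In HSF1-pLVX the order was NQO1 (111 ± 10.2), NFE2L2 (71.6 ± 4.47), TXNRD1 (55.3 ± 10.2), KEAP1 (54.3 ± 0.419), GCLC (45.8 ± 2.77), ME1 (23.5 ± 4.33), GCLM (11.6 ± 2.03), SRXN1 (4.14 ± 0.0319) and HMOX1 (2.36 ± 1.25). There the libraries of TXNRD1 and KEAP1 overlapped and the other neighbours were apart. NFE2L2 moved from the fifth place to the second, and HMOX1 from the seventh to the last. These places take all counted bases at face value. Other genes share 85.0% of the counted bases of SRXN1 and 20.9% of those of NFE2L2. With the overlap setting not given, the places of both genes, and the order of the others relative to them, are uncertain.

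**Figure D3:**
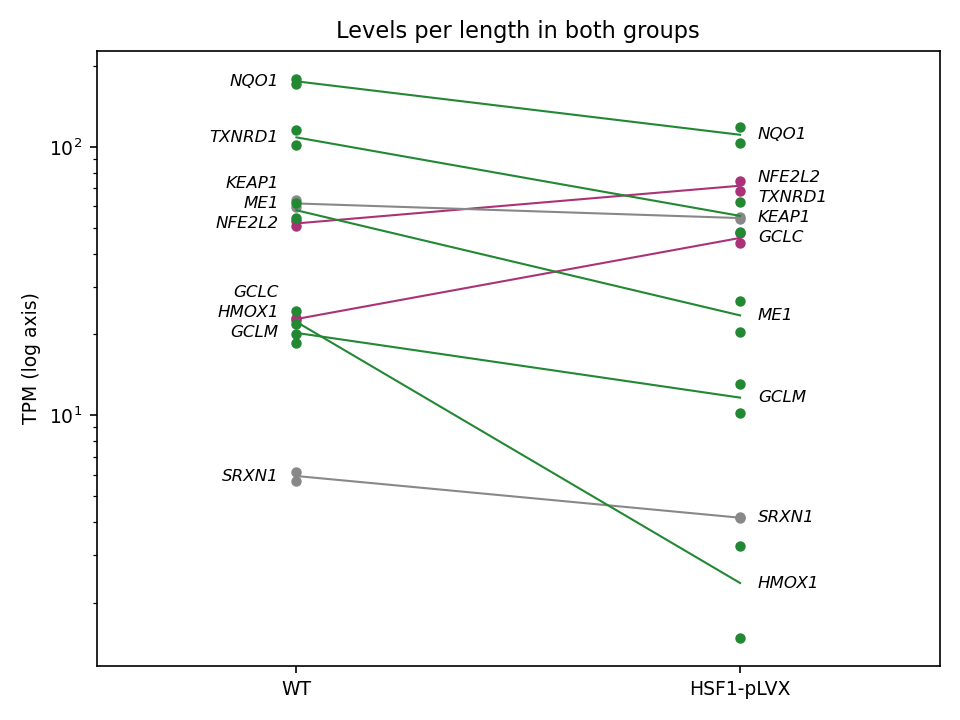
TPM (log axis) of the 9 genes in WT and HSF1-pLVX, with points for the libraries and lines joining the group means, coloured by whether the gene was called higher (purple), lower (green) or not called (grey). NFE2L2 and GCLC rise across the groups, while HMOX1 drops from 22.2 to 2.36, below SRXN1, whose own level is uncertain.

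Of 14 genes that act on NRF2 or share its binding sites, all tested, 1 was higher, 7 were lower and 6 were not called, with a median log2 fold change of -0.29. That is 7.14% higher and 50% lower, beside 32.7% and 33.2% of all tested genes. BACH1, the haem-sensitive repressor of HMOX1, was the one that rose, from 29.4 and 28.1 CPM to 65.7 and 67.1 CPM, a log2 fold change of 1.21 (SE 0.0864, edgeR adjusted p = 2.03e-08). MAFG, a small MAF partner of both NRF2 and BACH1, was lower, at 54.6 and 55.5 CPM in WT and 33.3 and 33.6 CPM in HSF1-pLVX (log2 fold change -0.72, SE 0.0849, edgeR adjusted p = 3.77e-06). The ratio of NFE2L2 to BACH1 in TPM was 4.39 and 4.52 in WT and 2.86 and 2.79 in HSF1-pLVX. BACH1 thus rose by more than NFE2L2 did, and relative to MAFG it went from 0.364 and 0.342 to 1.34 and 1.35. MAFG is only one of the small MAF genes. MAFF, which lay above it in every library, was not called, at 82.9 and 110 CPM in WT and 78.4 and 90.0 CPM in HSF1-pLVX (log2 fold change -0.20, SE 0.118). MAFK was lower (-0.54, SE 0.0960). MAFF and MAFK were named after their values were seen. Whether BACH1 or the small MAF genes had a part in the fall of HMOX1 was not tested. Among the rest of the list, BACH2 was lower at a log2 fold change of -2.0004 (SE 0.138), GSK3B, a kinase that marks NRF2 for degradation by another route, at -0.99 (SE 0.0863), and NFE2L1, the relative of NRF2 that controls proteasome genes, at -0.58 (SE 0.0985). CUL3, the scaffold of the KEAP1 ligase, was lower by the smallest amount of the 7 (log2 fold change -0.38, SE 0.0828, edgeR adjusted p = 0.00107), and without HSF1-pLVX replicate 2 its adjusted p was 0.0542 with edgeR. SQSTM1, which sequesters KEAP1, held 33 to 53 counts in each library and was not called, with a log2 fold change of -0.14 (SE 0.325). Other genes on the opposite strand share 22.0% of its counted bases, and with the counting settings not given its level is uncertain.

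Of 15 genes of glutathione synthesis and turnover other than GCLC and GCLM, all tested, 11 were higher, 1 was lower and 3 were not called, with a median log2 fold change of 1.06. That is 73.3% higher, beside 32.7% of all tested genes, and 9 of the 15 were at least 2-fold higher, beside 14.9% of all tested genes. SLC7A11, the cystine transporter that supplies cysteine, held 20.3 and 16.5 CPM in WT and 46.6 and 44.7 CPM in HSF1-pLVX, a log2 fold change of 1.31 (SE 0.107, edgeR adjusted p = 8.34e-08). SLC3A2, its heavy chain partner and the partner of several other amino acid carriers, was 330.0 and 287 CPM in WT and 727 and 814 CPM in HSF1-pLVX (log2 fold change 1.322, SE 0.107). SLC3A2 was named after its values were seen, for its place beside SLC7A11. GSR, the reductase that regenerates glutathione with NADPH, went from 43.2 and 39.5 CPM to 88.9 and 90.1 CPM (log2 fold change 1.11, SE 0.0857, edgeR adjusted p = 4.36e-08). So both chains of the cystine carrier, the catalytic subunit of the first enzyme and the reductase were each more than 2-fold higher. GCLM, the modifier subunit of the first enzyme, was lower. GSS, which adds glycine in the second step, was not called, with 75.3 and 69.1 CPM in WT and 73.6 and 76.4 CPM in HSF1-pLVX (log2 fold change 0.05, SE 0.0844, edgeR adjusted p = 0.585). Relative to GSS, GCLC went from 0.190 and 0.199 to 0.407 and 0.390 in TPM. The largest change of the list was in CBS, which starts the transfer of sulfur from homocysteine to cysteine, with 7 and 11 counts in WT and 125 and 67 in HSF1-pLVX (log2 fold change 3.13, SE 0.351, edgeR adjusted p = 2.24e-06). CBS has a near-identical copy in the genome, so its counts are uncertain. GGT7, a member of the gamma-glutamyltransferase family, had a log2 fold change of 1.42 (SE 0.233). The list also covers turnover, so its median is not one of synthesis alone. Among its turnover genes, CHAC1 (1.05, SE 0.126) and OPLAH (1.33, SE 0.107) were higher. CHAC2 (0.09, SE 0.220) and GGT1 (0.61, SE 0.360) were not called. GGT5 was higher, from 4 and 7 counts in WT to 38 and 41 in HSF1-pLVX (2.59, SE 0.416). Apart from GGT7, these turnover genes were named after their values were seen. The one gene that was lower, SLC25A39, a carrier that brings glutathione into mitochondria, had a log2 fold change of -0.25 (SE 0.0927, edgeR adjusted p = 0.0276). This call was lost without WT replicate 1, HSF1-pLVX replicate 1 or HSF1-pLVX replicate 2, where the log2 fold change was -0.19, -0.16 and -0.33.

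Of 25 genes whose products use glutathione, 20 were tested, of which 6 were higher, 7 were lower and 7 were not called, with a median log2 fold change of -0.10. The share called, 65.0%, was near the 65.9% of all tested genes. GLRX, the cytosolic glutaredoxin, was lower, at 45.5 and 53.2 CPM in WT and 10.2 and 8.56 CPM in HSF1-pLVX (log2 fold change -2.39, SE 0.119, edgeR adjusted p = 5.33e-10). The glutathione peroxidase GPX3 was also lower (log2 fold change -1.64, SE 0.128). GSTA4, a transferase for lipid aldehydes, was higher by 2.34 (SE 0.278) on the log2 scale from 17 and 15 counts in WT, and GPX8 by 0.44 (SE 0.0869). GPX4, which reduces lipid peroxides in membranes, was 185 and 161 CPM in WT and 167 and 184 CPM in HSF1-pLVX, and GSTP1, the most abundant transferase named here, was 1154 and 1093 CPM in WT and 1222 and 1349 CPM in HSF1-pLVX. Neither was called, the log2 fold changes being 0.02 (SE 0.0968) and 0.19 (SE 0.104).

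The thioredoxin and peroxiredoxin genes other than TXNRD1 and SRXN1 had 7 of 19 higher, 7 lower and 5 not called, with a median log2 fold change of 0.09, and the 36.8% in each direction stand beside 32.7% higher and 33.2% lower of all tested genes. TXN, the thioredoxin that TXNRD1 reduces, was lower, at 240 and 219 CPM in WT and 167 and 181 CPM in HSF1-pLVX (log2 fold change -0.40, SE 0.0921, edgeR adjusted p = 0.00147). TXNIP, which binds and inhibits thioredoxin, was higher, at 469 and 494 CPM in WT and 837 and 931 CPM in HSF1-pLVX (log2 fold change 0.88, SE 0.101, edgeR adjusted p = 2.81e-06). The mRNAs of TXN and TXNRD1 were thus both lower and that of TXNIP higher. The other genes of these kinds did not follow. TXN2, another thioredoxin gene, was higher (log2 fold change 0.42, SE 0.0969, edgeR adjusted p = 0.00143). Of the other reductase genes, TXNRD3 was higher (0.74, SE 0.133) and TXNRD2 was not called. TXN2, TXNRD2 and TXNRD3 were named after their values were seen. The ratio of TXNRD1 to TXN in TPM was 0.181 and 0.165 in WT and 0.140 and 0.107 in HSF1-pLVX. SESN1, one of the sestrins, had a log2 fold change of 1.25 (SE 0.105), and the methionine sulfoxide reductases MSRA and MSRB3 had -1.25 (SE 0.0941) and -1.61 (SE 0.145). PRDX1, a substrate of sulfiredoxin, was not called (log2 fold change 0.20, SE 0.0894, edgeR adjusted p = 0.0625), and without WT replicate 1 its edgeR adjusted p was 0.0492.

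**Figure D4:**
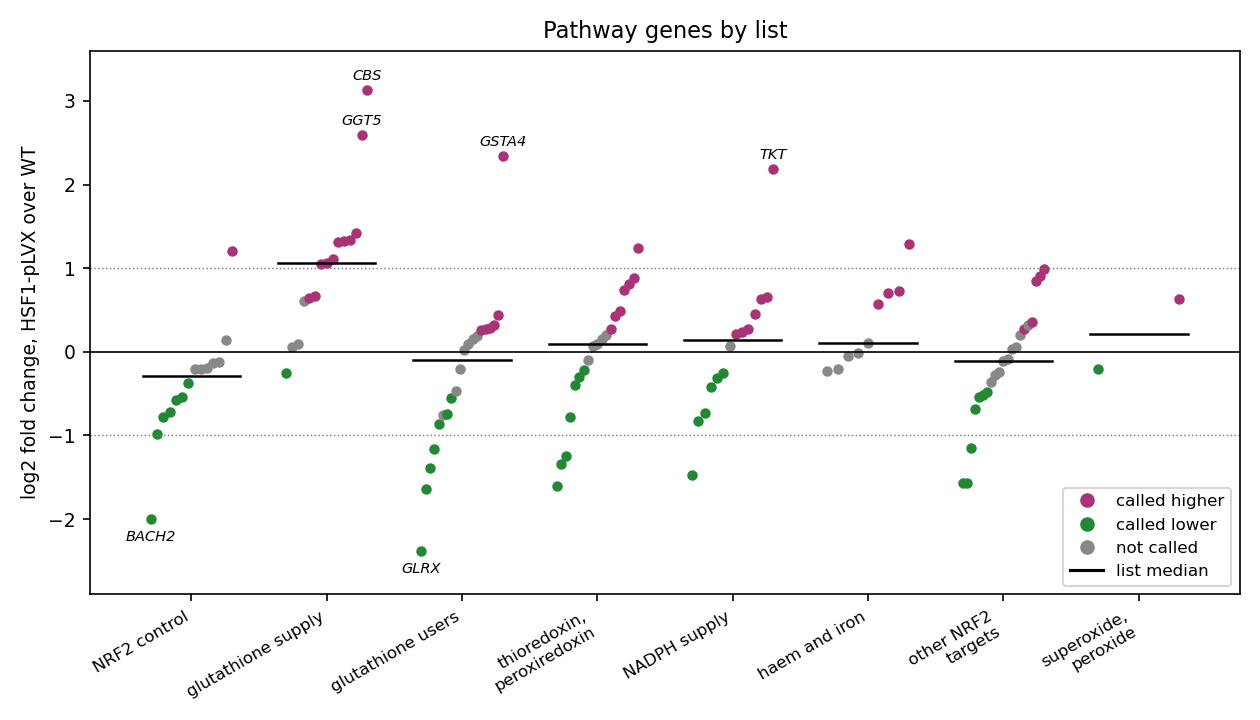
Fitted log2 fold change of HSF1-pLVX over WT for the tested genes of the 8 pathway lists, sorted within each list, with the list median as a bar and dotted lines at 2-fold. The list of glutathione synthesis and turnover has its median at 1.06, and the medians of the other 7 lists lie between -0.29 and 0.21.

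Beside ME1, 14 genes of NADPH supply were tested, of which 7 were higher, 6 were lower and 1 was not called (median log2 fold change 0.14). These are 50% higher and 42.9% lower, beside 32.7% and 33.2% of all tested genes. TKT, the transketolase of the pentose phosphate pathway, was higher, from 359 and 309 CPM in WT to 1458 and 1574 CPM in HSF1-pLVX (log2 fold change 2.18, SE 0.112, edgeR adjusted p = 7.19e-10). PGD, which makes NADPH in that pathway, was lower, with a log2 fold change of -0.32 (SE 0.0861, edgeR adjusted p = 0.00498), and was not called without HSF1-pLVX replicate 2 (-0.28). IDH1, the cytosolic isocitrate dehydrogenase, was lower (log2 fold change -0.83, SE 0.0989), as was ME3, the mitochondrial relative of ME1 (-1.47, SE 0.136). Of the enzymes named here that make NADPH in the cytosol, ME1, IDH1 and PGD were all lower. IDH1 was named for the size of its fall, so this shared direction does not describe the list. NADK2, the mitochondrial NAD kinase, was higher by 0.66 (SE 0.126) on the log2 scale.

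Around HMOX1, 9 of 11 genes of haem and iron handling were tested, of which 4 were higher, none was lower and 5 were not called (median log2 fold change 0.11). The share called was 44.4%, beside 65.9% of all tested genes. FLVCR1, a haem exporter, was higher (log2 fold change 1.29, SE 0.136, edgeR adjusted p = 1.20e-06), and so was SLC48A1, which moves haem out of lysosomes (0.73, SE 0.102). BLVRA, the main reductase of the biliverdin that haem oxygenase makes, was higher, from 40.4 and 37.9 CPM in WT to 57.5 and 59.0 CPM in HSF1-pLVX (log2 fold change 0.57, SE 0.0855, edgeR adjusted p = 3.74e-05). It was named after its values were seen. BLVRB, the second biliverdin reductase, was 38.0 and 34.4 CPM in WT and 32.7 and 39.0 CPM in HSF1-pLVX and was not called. The ferritin chains, both NRF2 targets, were not called either, with log2 fold changes of 0.11 (SE 0.119) for FTH1 and -0.23 (SE 0.0999, edgeR adjusted p = 0.0555) for FTL. Without WT replicate 2 the log2 fold change of FTL was -0.33 and passed (edgeR adjusted p = 0.0137). Other genes on the opposite strand share 62.4% of the counted bases of FTH1. HMOX2, the constitutive haem oxygenase, held at most 1 count in a library and was not tested. A second entry, with at least 80% of its exon lengths in common and on a contig outside the main chromosomes, held 6 to 18 counts, so the level of HMOX2 is uncertain.

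Of 21 further genes described as NRF2 targets, 5 were higher, 7 were lower and 9 were not called (median log2 fold change -0.11), so 57.1% were called, beside 65.9% of all tested genes. The lowest were AIFM2, a ubiquinone reductase that protects against lipid peroxidation, at a log2 fold change of -1.57 (SE 0.102), and OSGIN1, a growth regulator induced by oxidative stress, also at -1.57 (SE 0.165). AKR1B1 and the efflux pump ABCC4 were higher, by 0.91 (SE 0.0962) and 0.99 (SE 0.113) on the log2 scale. AKR1C1, which shares near-identical sequence with its neighbours and is uncertain for that reason, was not called, at a log2 fold change of -0.36 (SE 0.173, edgeR adjusted p = 0.0799), and it depended on single WT libraries, at -0.06 (edgeR adjusted p = 0.821) without WT replicate 1 and -0.62 (edgeR adjusted p = 0.00119) without WT replicate 2. Of the genes for superoxide and peroxide removal, SOD1 was higher by 0.63 (SE 0.0872) and the log2 fold change of CAT was -0.20 (SE 0.0844, edgeR adjusted p = 0.0480). The call of CAT was lost without WT replicate 1 (-0.15), HSF1-pLVX replicate 1 (-0.23) or HSF1-pLVX replicate 2 (-0.16). Over the 8 lists together, 114 of 123 genes were tested, with 42 higher, 36 lower and 36 not called and a median log2 fold change of 0.05. The shares higher and lower were 36.8% and 31.6%, beside 32.7% and 33.2% of all tested genes.

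The genes whose pattern over the 4 libraries was most like that of NFE2L2 were NELFCD, RBM33 and STX6, by the root mean square difference of log2(CPM + 1) after centring each gene, over 9118 genes with a mean of at least 10 CPM. The differences were 0.0106, 0.0119 and 0.0124. In total 846 genes lay within 0.1 of NFE2L2, so its pattern was a common one. For HMOX1 the nearest were VGLL3, NECTIN4 and LIPH, at 0.0527, 0.0603 and 0.0626, and only 6 genes lay within 0.1. HMOX1 held 2.55 and 1.26 CPM in HSF1-pLVX, so the 1 added before the log shrinks its change on this measure. The fitted log2 fold changes of these neighbours were -2.71, -2.64 and -2.84, against -3.12 for HMOX1. These likenesses rest on 4 libraries in 2 groups and describe the shared difference between the groups.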

How the data were processed

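RNA-seq counts of 2 WT and 2 HSF1-pLVX libraries of MCF10A cells were analysed. The authors aligned paired-end reads to hg38 with HISAT2 2.0.5, processed them with SAMtools 1.13 and deposited raw counts per gene from featureCounts 1.6.5 for 63856 genes of GENCODE release 26. Strand, overlap and multi-mapping settings are not given in the sources used here. The table the authors normalized with DESeq2 1.32.0 holds log2-like values for 22321 rows and served the ratio rule only. Samples were grouped by their titles. The 9 genes and all lists were chosen with earlier results of these data known.

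The main test was that of edgeR 4.0.16, run in R 4.3.3 (TMM, filterByExpr, quasi-likelihood, group as the only term). P-values were adjusted by Benjamini-Hochberg over 15830 genes. The SE is the fitted change divided by the root of the F statistic. Replicates of WT and HSF1-pLVX differed beyond sampling noise (chi-square per degree of freedom 7.34 and 9.02). Library totals lay between 18688109 and 24184285 counts, and the common biological coefficient of variation was 0.0738. The replicate number was not a term, because neither the labels nor the study's methods say that it marks a shared culture or day. As a check, same-numbered libraries did not deviate together from their group means. TPM used the counted exon length. Symbols came from GENCODE release 44 and named 14522 of the tested genes.

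Beyond the 9 genes, the text names pathway genes marked for their role and, in each list, up to 2 rises and 2 falls among called genes with non-overlapping groups and no library of the higher group under 50 counts. SLC3A2, BLVRA, CHAC1, CHAC2, OPLAH, GGT1, GGT5, MAFF, MAFK, TXN2, TXNRD2 and TXNRD3 were named after their values were seen. On simulated data with the same groups (3 draws of 200 changed genes, 15391 to 15429 genes, the same spread for every gene), the fit recovered 80.4% of 2-fold and 95.9% of 4-fold changes, and 3.97% of its calls were false. The real comparison called 65.9% of its genes, its common coefficient of variation was below the simulated one, and spread may differ between genes. These rates need not hold for that comparison. Alternatives covered normalization, the filter, DESeq2 1.42.0, the replicate block, each library left out and the call rule. Of 123 listed genes 122 matched, SOD2 being the exception, and 1 listed gene that enters the counts is not reported here by itself.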

Additional observations from a re-analysis of the deposited data

How the results depend on the processing

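Under DESeq2 size factors, library size alone, no filter on low counts, DESeq2's Wald test, the replicate block and each library left out in turn, 2 of the 9 genes were called higher and 5 lower, as in the report. With a 2-fold change added to the call, 1 was higher and 2 were lower, and the study's ratio rule gave 1 and 2. Of 90 alternative values of the 9 genes, 89 kept their direction and their side of the threshold. The exception was KEAP1, not called in any, which was 0.0078 without WT replicate 1 and ran from -0.200 to 0.0078 on the log2 scale when 1 library was left out. Ranking the WT levels by CPM in place of TPM put 7 of the 9 genes at another rank. With the replicate block, 5138 of all tested genes were called higher and 5171 lower, against 5175 and 5253 without it. The deviations of same-numbered libraries correlated at -0.0288 over 15830 genes and at -0.119 over the 9118 genes of at least 10 CPM. A block of the crossed pairing, added after seeing the data, called 5429 higher and 5487 lower. With DESeq2's test the counts were 4129 and 4540, and with 1 library left out 3783 to 4923 and 3846 to 4962. Under the replicate block the call of CAT was lost (adjusted p = 0.0736 with edgeR) and no other call of a gene named from the lists changed. Among 430 alternative values of 43 genes named from the lists by role or size, 394 kept direction and call, 18 of 5 genes (CUL3, SLC25A39, PGD and CAT among them) lost the call and 10 of 4 genes (GSTP1, PRDX1, FTL and AKR1C1) gained it. The other 8 changed sign in 5 genes that were not called. With 1 library left out, the log2 fold change ran from -0.694 to 0.322 for SQSTM1, -0.0234 to 0.133 for GSS, -0.0958 to 0.135 for GPX4, -0.138 to 0.111 for BLVRB and -0.0177 to 0.238 for FTH1, and with library size alone BLVRB was 0.0414. The cause of these changes was not tested. With 1 library left out, the lone library of a group is assumed to vary like the other group. Few counts limit the precision of SRXN1 (79 to 96), SQSTM1 (33 to 53) and HMOX1 in HSF1-pLVX (25 and 64), and those of SRXN1 and SQSTM1 may depend on counting settings that are not given, and intervals cover the spread between these libraries.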
